A study of Homo sapiens with 3 samples.

Results

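The transcripts of vehicle-treated TK-10 cells were read from a single array, and the genes named on it were ordered from the brightest signal to those not detected. TK-10 is an established human renal carcinoma cell line. The cells had been kept in 0.1% DMSO, the vehicle, for 48 h before total RNA was taken. Per the labels, the medium was DMEM with 10% fetal bovine serum and penicillin-streptomycin, and also held 10 mM nicotinamide, 10 μM troglitazone, an agonist of the nuclear receptor PPARγ, and 16.7 μM zinc sulfate. The methods name only the serum and the antibiotics, and the files do not settle which medium was used. The series holds 3 arrays, 1 for each condition, and the drug-treated cells are not described here. Members were all probes that were not controls, after spots marked as outliers by the scanner software had been left out. These were 58194 of 58201 probes, since 7 probes lost their only spot. A total of 31100 probes carried an accession of a named RefSeq gene and stood for 22436 genes, each given by its brightest probe.

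Renal carcinoma cells of the common types arise from the epithelium of the kidney tubule. PAX8, a transcription factor of kidney development, remains in most renal tumors and is used to recognise them. Loss of VHL, the tumor suppressor that marks hypoxia-inducible factors for destruction, is frequent in the clear cell type. Renal carcinoma cells often carry both keratins, the filaments of epithelium, and vimentin, the filament of mesenchymal cells. Cultured tubule cells commonly lose the transporters that tubules use to recover solutes.

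With 1 array and no replicate, no test between samples was possible, and every value describes these cells on this array. The processed signal is the scanned intensity of a probe after subtraction of background, on a linear scale. A gene was called detected when its brightest probe was well above background by the software's test. Signals depend on the probe as well as on the transcript, so the order of genes is an order of brightness, not of transcript copies. The software's own error had a median of 10.1% of the signal over detected genes, and 13.3% over those with signals up to 100. Between the spots of a probe printed several times, the median SD of the log2 signal was 0.049 over 284 detected probes. Of these probes 153 had signals over 1000, and the 9 with signals up to 100 had a median SD of 0.179. Both errors cover the array and not the culture.

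Of 22436 named genes, 14682 (65.4%) were detected and 7754 (34.6%) were not. Detected genes had a median signal of 407, with 5% below 32.1 and 5% above 9620. A signal over 1000 was reached by 4581 genes, which is 20.4% of all named genes, a signal over 10000 by 707 genes and one over 100000 by 65. Signal was concentrated in few genes, as the 50 brightest held 21% of the summed signal and the 500 brightest 60.4%. Genes not detected had a median signal of 4.79, near the median of 4.37 for the 308 negative control spots, which match no human transcript. Of these control spots, 5 were called well above background, a share of 1.62% (exact 95% interval 0.529 to 3.75, counting error only). The 99th percentile of the control spots was 29.6, and 96.1% of the detected genes lay above it. The highest control spot read 166. The edge of detection was not sharp. The lowest detected gene had a signal of 18.4 and the highest undetected gene one of 25.5, and of the 601 genes between them 300 were detected.

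**Figure D1:**
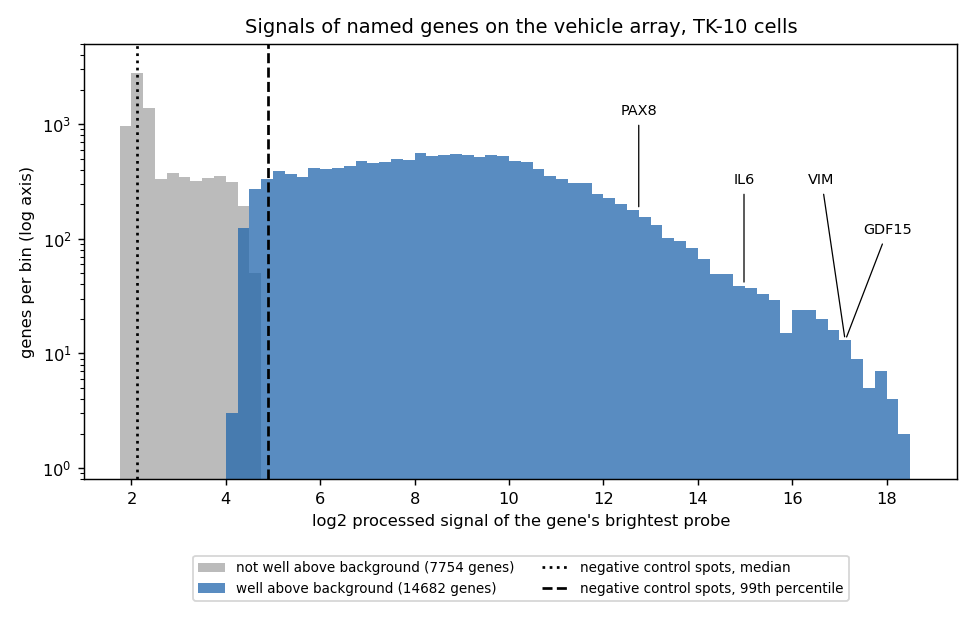
Number of named genes (y axis, log scale) by log2 processed signal of the brightest probe (x axis) on the vehicle array, with genes well above background in blue and the others in grey. Dotted and dashed lines give the median (4.37) and 99th percentile (29.6) of the negative control spots, and PAX8, IL6, VIM and GDF15 lie far to the right of both.

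The share detected depended on the kind of transcript. Protein-coding genes were detected in 12955 of 18214 cases (71.1%), long non-coding RNAs in 1142 of 3245 (35.2%) and small nucleolar RNAs, which guide the modification of ribosomal RNA, in 203 of 285 (71.2%). Transcribed pseudogenes, copies of other genes that can share their sequence with a probe's intended target, were detected in 328 of 621 cases (52.8%). Protein-coding genes that were detected spanned a median of 29.1 kb of the genome (quartiles 11503 and 71886 bases), those that were not spanned 19.2 kb (6406 and 63912 bases), and those among the 500 brightest spanned 9.95 kb (3960 and 27256 bases). The brightest genes spanned less of the genome, while the quartiles of detected and undetected genes overlapped widely. Base composition of promoters was not compared, since promoter sequences matched under 80% of the undetected (77%) and brightest (78.5%) protein-coding genes.

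Genes of ribosomes dominated the brightest signals. RPS2, a protein of the small ribosomal subunit, was the brightest gene at 339534 ± 33953 (software error), followed by the probe for 28S ribosomal RNA (RNA28SN5) at 334892. Cytosolic ribosomal proteins made up 15 of the 40 brightest genes, among them RPS18 at 269023 and RPL13 at 223152. Of 84 cytosolic ribosomal protein genes with a named probe, 82 were detected (97.6%, beside 65.4% over all genes), with a median signal of 84631. Cytoskeleton and iron storage were also represented, by ACTB (β-actin, 234782) and FTH1 (ferritin heavy chain, 189493). MT2A (a zinc-binding metallothionein), KRT19 (a keratin of simple epithelium), HLA-E (a class I histocompatibility molecule), GDF15 (a secreted stress cytokine) and VIM (vimentin) were the other members with known roles that recur in the sections on gene groups. Neighbouring ranks were not resolved by the software's own error, which had a median of 10% of the signal over the 500 brightest genes. The spread between spots was not used for this. None of the 40 brightest genes exceeded the gene ranked next by over 1.96 combined software errors, 6 exceeded the gene 10 places lower and 25 the gene 20 places lower.

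Several of the brightest genes rested on a single bright probe while other probes of the same gene were dim, some of them well above background and some not. ZNF865, a zinc finger gene ranked 3, had probes at 295307, 103 and 21.0. GPR155, ranked 4, had probes at 271516, 74.5 and 46.2. FUT6, a fucosyltransferase gene, had 257128 on one probe and 3.65 on the other, which was not detected. TONSL, EXOSC2, PTK6, AS3MT, SLC16A12 and TSR1 showed gaps of the same kind, and so did the ribosomal protein genes RPS20 (133723 and 19.8, not detected) and RPL32 (140876 and 981). Among the 40 brightest genes, 23 had several probes, and in 11 of these the dimmest was over 100-fold below the brightest. FTH1 and RPL36A had all their probes bright, the dimmest of them at 97870 and 113696. CYP2W1 (256501) and SLC66A1 (270760) had 1 named probe each, so no second probe was at hand. Over all genes with several probes, 5027 were detected, 3380 of them (67.2%) by every probe, and the median log2 gap between brightest and dimmest probe was 2.82. For accessions with several probes of their own the median gap was 2.56. Ordered by the dimmest probe, 19 of the 40 brightest genes stayed in the first 40 and ribosomal proteins made up 20. Genes with 1 probe could not fall in this order, and of those with several probes only FTH1 and RPL36A stayed. Why these probes differ was not tested.

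Gene groups were described with 17 hand-written lists of 584 genes, divided into 42 groups by role. Of these genes 569 had a named probe, and 434 (76.3%) were detected, beside 65.4% of all named genes and 71.1% of the protein-coding ones. The count of each group is to be read beside these shares. Genes with several probes had more chances to be detected (74.4%) than genes with 1 probe (61.6%), and a group's share depends on this too. Every member with a named probe was detected in 12 of the 42 groups. Among the detected members, 38 had another probe that was not detected, and 7 had a signal under 30, near the 99th percentile of the negative control spots. Where a gene with several probes is given 1 value, it is that of its brightest, and its other probes can be far dimmer.

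**Figure D2:**
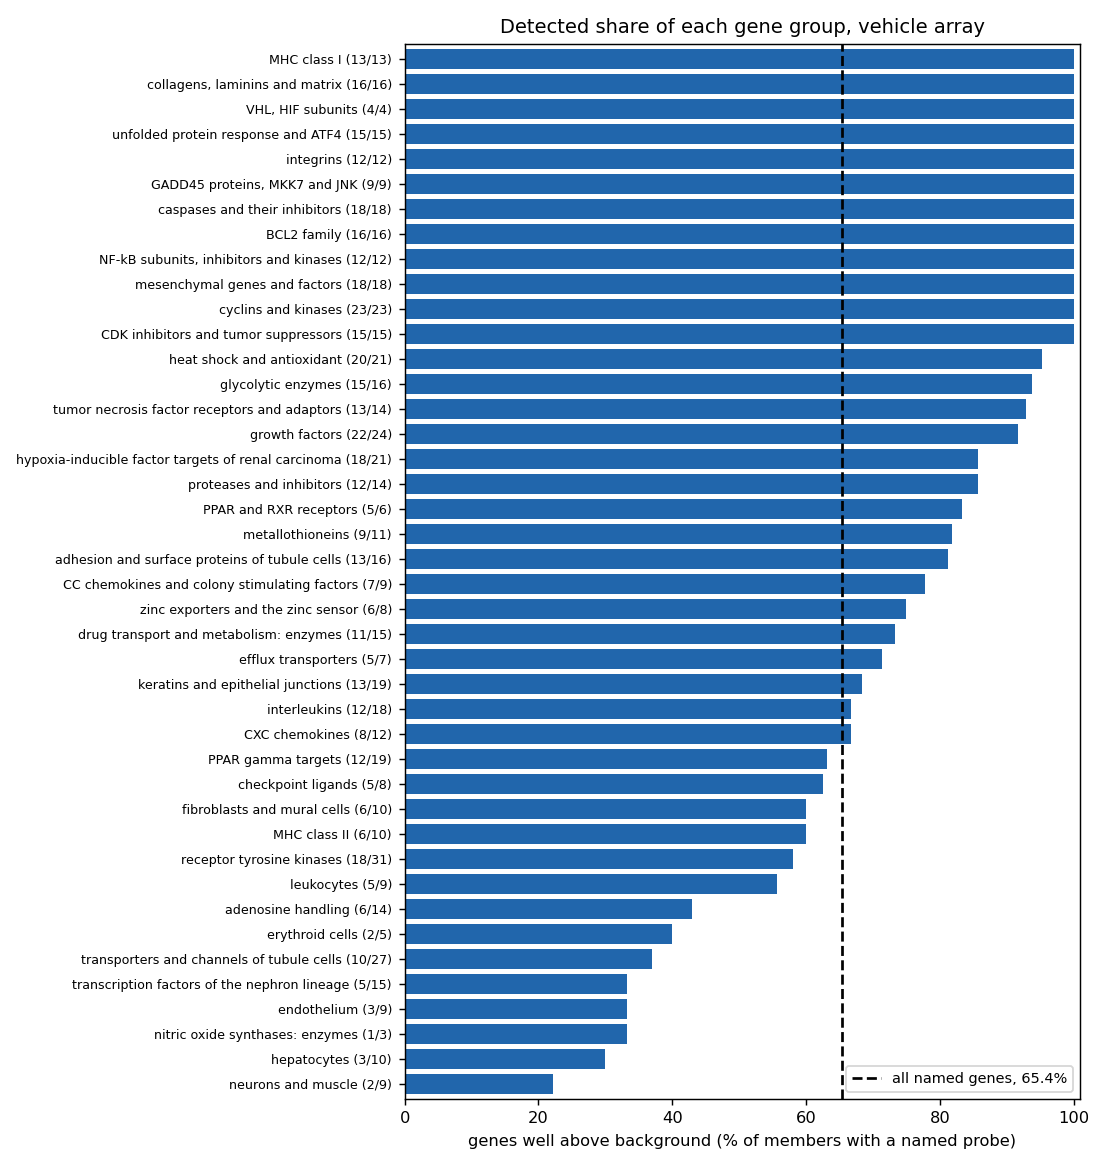
Share of genes well above background (x axis, % of members with a named probe) in each of the 42 groups, with detected and measured members in parentheses. The dashed line marks 65.4%, the share over all named genes, non-coding ones included, and 71.1% of protein-coding genes were detected. The groups at 100% include the BCL2 family, caspases, cyclins and NF-κB genes.

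The kidney label was checked first. PAX8 had a signal of 6878 ± 688 from its 1 probe. LHX1, a factor that acts early in the forming nephron, reached 4439, and PAX2, the relative of PAX8, reached 2227 on one probe while its other probe read 13.5 and was not detected. GATA3 (81.9), of the collecting duct lineage, and WT1 (29.7), of the podocyte and early nephron, lay at the dim end. The remaining 10 of 15 lineage factors were not detected, among them HNF4A (3.97), which drives proximal tubule genes, and SIX2 (4.50), of nephron progenitors. The group's detected share, 5 of 15, was thus below the 65.4% over all genes, with the signal carried by PAX8, LHX1 and PAX2.

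Surface proteins of tubule cells were mostly present. N-cadherin (CDH2), the main cadherin of the proximal tubule, had probes at 15002 and 5823. The kidney cadherins CDH16 (1340) and CDH6 (913), the epithelial surface proteins CD24 (4210) and EPCAM (1091), and the injury marker HAVCR1 (530) were detected. The brush border enzymes GGT1 (444), MME (371), DPP4 (319) and ANPEP (169) and the endocytic receptor LRP2, also called megalin (338), had lower signals. CDH1, the cadherin of distal tubule and most epithelia, read 17.9 and CUBN, the partner of LRP2, read 19.9, and neither was detected. In all 13 of 16 members of the group were detected (81.2%, beside 65.4% over all genes and 71.1% over protein-coding genes).

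Transporters of differentiated tubules were mostly not detected. Of 27 genes, 10 were detected (37%, beside 65.4% over all genes), and the brightest were not specific to tubules. These were the lactate exporter SLC16A3 (43080) and the sodium pump subunit ATP1B1 (7347). The potassium channel KCNJ16 (1667), the pump regulator FXYD2 (392) and the chloride transporter CLCN5 (151) were also detected. AQP1, the water channel of proximal tubule, read 91.8 on one probe and 7.56 on the other. SLC5A2, the glucose transporter of the early proximal tubule, read 58.0, and UMOD, the urinary protein of the thick ascending limb, 74.0. The organic anion and cation transporters SLC22A6 (4.16), SLC22A8 (4.97) and SLC22A2 (3.88), the phosphate transporter SLC34A1 (9.80), the salt transporters SLC12A1 (4.99) and SLC12A3 (3.98) and the collecting duct water channel AQP2 (9.35) were not detected.

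Epithelial and mesenchymal genes were found together. KRT19 was the brightest keratin at 175293, and KRT18 (32570 and 5111), KRT7 (10194) and KRT8 (4870, 975 and 53.3), keratins of simple epithelium, were detected. KRT5 (4.12), KRT14 (19.4) and KRT20 (4.08), which belong to stratified or intestinal epithelium, were not. Most tight junction and desmosome genes on the list were detected, including CLDN1 (13726), JUP (4920), DSP (1703) and TJP1 (1086). The claudin CLDN7 was not detected. OCLN, or occludin, was near the edge of detection, at 33.8 on one probe and 23.2, not detected, on the other. ESRP1 (13.6) and GRHL2 (4.46), regulators of the epithelial state, were not detected. All 18 mesenchymal genes were detected, with VIM at 142519 and the adhesion protein TGFBI at 49591. The hyaluronan receptor CD44 had probes at 25364 and 45.3, and the matrix protein SPARC read 13985. The factors that drive the mesenchymal state were dimmer, with SNAI1 at 811, ZEB1 at 657, ZEB2 at 318, SNAI2 at 156 and TWIST1 at 104.

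Markers of other cell types were detected in 21 of 52 cases (40.4%, beside 65.4% over all genes). Defining genes of blood, vessel and liver were at background, among them MS4A1 (4.83) of B cells, PECAM1 (4.31) and KDR (4.74) of endothelium, HBB (4.72) of red cells and ALB (11.9) of hepatocytes. PTPRC, the common leukocyte antigen, read 26.6 on its brightest of 5 probes, under the 99th percentile of the control spots. Some members of these lists were clearly detected. CD14, of monocytes, read 693, COL1A1, the fibrillar collagen of fibroblasts, 5308, SERPINA1, the antitrypsin of liver and many epithelia, 1291, and SNAP25, of neuronal synapses, 1227. Of the fibroblast and mural cell list 6 of 10 were detected, with the matrix proteins DCN (707), LUM (383) and DPT (120), the receptor PDGFRB (706) and RGS5 (70.2) beside COL1A1. The collagens COL1A2 (7.16) and COL3A1 (5.12), POSTN (4.58) and PDGFRA (4.11) were not. RNA of a culture does not tell which cells made a transcript, and the part of other cells in these signals was not tested.

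**Figure D3:**
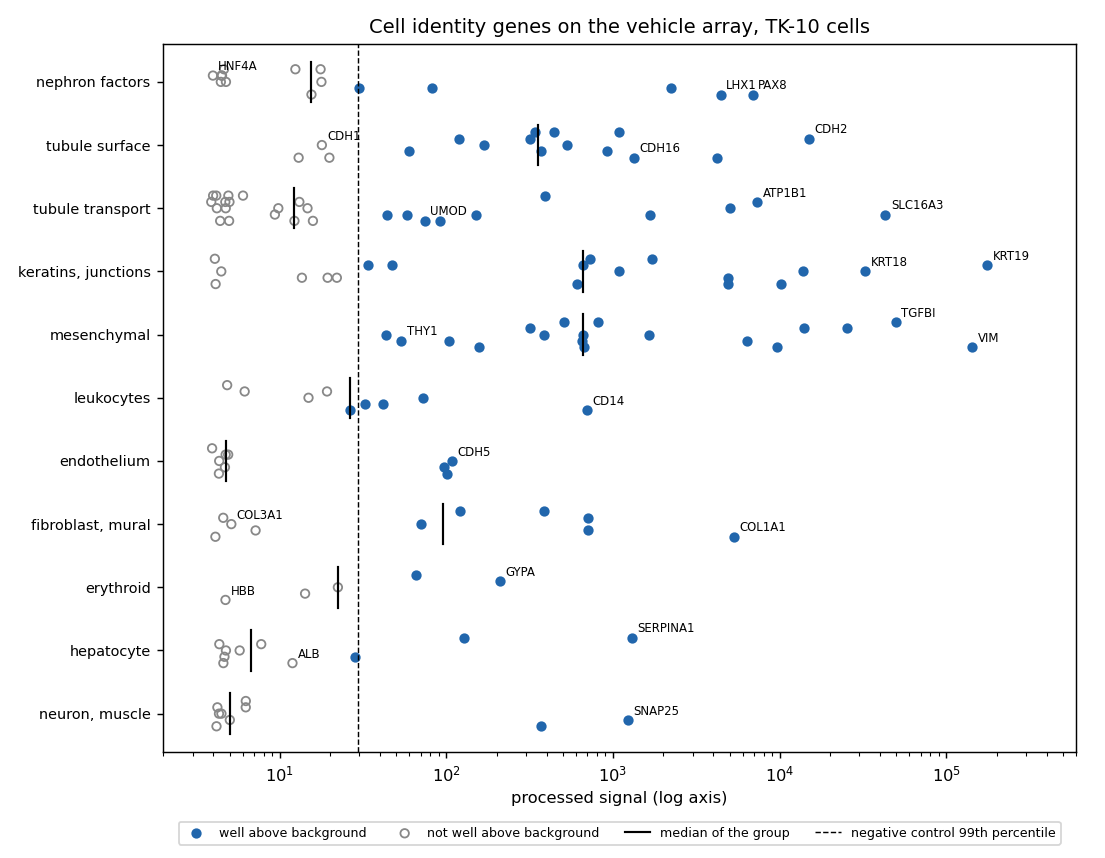
Processed signal (x axis, log scale) of each member of the kidney, epithelial, mesenchymal and other cell type groups (rows), filled where well above background, with the group's median as a vertical bar. VIM, TGFBI, KRT19 and KRT18 lie at the bright end, while most nephron factors, tubule transporters and endothelial genes lie left of the negative control 99th percentile (dashed, 29.6).

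Genes of the hypoxia pathway were detected in 18 of 21 cases (85.7%, beside 65.4% over all genes). CA9, a common marker of VHL loss, was among the 3 that were not. VHL itself read 27526 on its 1 probe, which does not tell a working copy from a mutated one. The factor EPAS1, also called HIF-2α, read 6219, HIF1A 1816 and their partner ARNT 88.1. Among targets, the vasodilator peptide ADM was brightest at 18848, followed by the glucose carrier SLC2A1 (3986), the growth inhibitor DDIT4 (3830) and the angiogenic factor VEGFA (3177 and 557 on its probes). CA9, carbonic anhydrase IX, read 4.07 and was not detected, nor were EGLN3 (7.84), a prolyl hydroxylase, and EPO (4.86), erythropoietin. CA12 (82.6), of the same enzyme class as CA9, was detected. Glycolytic enzymes were detected in 15 of 16 cases, with a median signal of 5744. GAPDH (47024), LDHB (37589), PFKP (28194) and PKM (18774) led, and ALDOC (5.39), the aldolase of brain, was the exception.

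Metallothioneins, small proteins that bind zinc and copper, were detected in 9 of 11 cases (81.8%, beside 65.4% over all genes). MT2A read 173007, MT1B 47886 and 24705, MT1E 47183 and 36368, MT1A 45442, and MT1M 12818. MT1F (2557), MT3 (2104) and MT1X (1609) followed, and MT1G read 93.2. MT1H (11.6) and MT4 (4.53) were not detected. The MT1 genes are near-identical copies, so the split of signal between them is uncertain. Zinc exporters and the zinc-sensing factor MTF1 were detected in 6 of 8 cases with lower signals. That share, 75%, was near the 71.1% over protein-coding genes. SLC30A7 had 642 on its brightest probe, SLC30A1, the exporter of the cell surface, 337, and MTF1, which binds metal response elements, 202.

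Promoters are shown for genes at both ends of the signal range whose sequence motifs are well known. Each is the 250 bases before the start of transcription, from RefSeq on GRCh38.p14, written 5′ to 3′ on the gene's strand, with matches in capitals. Motifs were searched on both strands. The metal response element was searched as TGCACNC and TGCGCNC, the hypoxia response element as ACGTG, the amino acid response element as TGATGNAA and the κB site by its consensus. Of 16975 promoters of named genes, 28.6% held the metal motif, 20.5% the hypoxia motif, 2.4% the amino acid motif and 10.8% the κB consensus. A match describes the letters only, and sites with other letters were not searched. In all 5 of the 11 metallothionein genes had a promoter in the table, so no count over the group is given. The MT2A promoter (chr16:56608334-56608583, plus strand) held 7 metal motifs, a number reached by 5 promoters. Of the other metallothionein promoters in the table, that of MT1H held 8 though the gene read 11.6 and was not detected, MT1X held 4 and read 1609, MT1B held 3 and read 47886, and MT4 held 3 and read 4.53.
MT2A: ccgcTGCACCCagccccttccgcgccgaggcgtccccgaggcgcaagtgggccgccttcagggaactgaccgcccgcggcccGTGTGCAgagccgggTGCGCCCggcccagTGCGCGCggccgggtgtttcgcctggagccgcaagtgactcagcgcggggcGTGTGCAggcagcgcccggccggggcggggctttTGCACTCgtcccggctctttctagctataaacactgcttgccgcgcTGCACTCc

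The promoters of IL6 (chr7:22726950-22727199, plus strand) and CXCL1 (chr4:73869143-73869392, plus strand), both bright cytokine genes, held a κB match that began 73 bases and 79 bases before the start. That of CXCL1 matched on overlapping positions. Matches were also held by undetected genes, CXCL10 (2 matches), CXCL11 (1) and IFNB1 (1). CXCL8, detected at 3080, held no match to the consensus in its window, and a κB site with other letters would have been missed.
IL6: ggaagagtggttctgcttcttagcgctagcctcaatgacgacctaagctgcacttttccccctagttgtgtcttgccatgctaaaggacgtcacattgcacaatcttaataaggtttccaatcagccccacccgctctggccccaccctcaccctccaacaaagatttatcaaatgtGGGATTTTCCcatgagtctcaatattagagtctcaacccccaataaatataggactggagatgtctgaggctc
CXCL1: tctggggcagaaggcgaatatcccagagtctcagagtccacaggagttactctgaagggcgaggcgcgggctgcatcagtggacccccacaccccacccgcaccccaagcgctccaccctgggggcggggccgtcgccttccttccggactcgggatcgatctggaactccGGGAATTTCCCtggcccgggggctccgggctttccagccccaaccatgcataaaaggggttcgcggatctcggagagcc

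The CA9 promoter (chr9:35673678-35673927, plus strand) held 1 hypoxia motif 18 bases before the start, though the gene read 4.07. ADM, the brightest target of the group, held no ACGTG in its window, and other forms of the element were not searched.
CA9: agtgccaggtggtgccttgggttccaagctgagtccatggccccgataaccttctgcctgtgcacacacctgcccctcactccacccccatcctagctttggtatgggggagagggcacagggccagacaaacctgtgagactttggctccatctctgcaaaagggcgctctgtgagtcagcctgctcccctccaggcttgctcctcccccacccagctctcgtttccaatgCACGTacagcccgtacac

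ASNS, asparagine synthetase and a target of the stress factor ATF4, held 1 amino acid motif (chr7:97872409-97872658, minus strand) and read 26565. GDF15, at 142838, held none in its window.
ASNS: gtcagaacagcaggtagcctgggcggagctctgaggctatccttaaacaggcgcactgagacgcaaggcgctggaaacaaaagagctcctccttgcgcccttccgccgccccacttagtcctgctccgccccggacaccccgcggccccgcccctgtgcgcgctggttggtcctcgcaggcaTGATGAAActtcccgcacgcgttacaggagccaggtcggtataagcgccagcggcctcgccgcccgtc

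Genes that PPARγ and its partners control were detected in part. The receptors RXRA (1383), PPARD (842) and PPARG (219) were detected and RXRG (4.83) was not. Of 19 targets in lipid storage and oxidation, 12 were detected. That is a share of 63.2%, beside 65.4% over all genes and 71.1% over protein-coding genes. ACADVL (11055), of mitochondrial fat oxidation, CIDEC (992) and PLIN2 (762), of lipid droplets, and ANGPTL4 (678), an inhibitor of lipoprotein lipase, led the group. FABP4 (4.75) and ADIPOQ (4.58), the fat cell targets, and PLIN5 (8.48) were not detected.

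Secreted signals were led by GDF15, at 142838 ± 14284 from 1 probe. The other bright growth factors were INHBA (45367), the activin subunit, MDK (40515), or midkine, and CCN1 (30853), a matrix protein. Growth factors were detected in 22 of 24 cases (91.7%, beside 65.4% over all genes). EGF (13.3) and HGF (4.70), the ligand of MET, were not detected. IL6, the inflammatory cytokine, had probes at 32267 and 108. IL32 (10967 and 4665), LIF (4409 and 74.5) of the IL6 family, IL15 (1508), IL11 (1461), IL1A (1213) and IL1B (825) were detected. TNF, used as a stimulus elsewhere in the study, read 51.7. T cell cytokines IL2 (4.19), IL4 (3.82) and IFNG (4.29) were not detected.

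Chemokines ranged from bright to undetected. The neutrophil attractants CXCL1 (99473 and 10813), CXCL5 (9631), CXCL2 (5519), CXCL6 (4294), CXCL8 (3080) and CXCL3 (171) were detected. CXCL12 (224) and CXCL16 (79.5) were detected as well. The interferon-induced T cell attractants CXCL9 (3.64), CXCL10 (4.56) and CXCL11 (4.02) and the epithelial chemokine CXCL14 (3.64) were not. CCL2, a monocyte attractant, read 12498, CSF2, a colony stimulating factor, 2282 and CCL3 1407. CCL28 (92.7) and CCL20 (30.8) were dim, while CCL5 (12.2) and CCL7 (4.01) were not detected. The CXC group as a whole, 8 of 12, had a share near that of all genes (66.7% beside 65.4%, and 71.1% over protein-coding genes).

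Receptor tyrosine kinases were detected in 18 of 31 cases (58.1%, beside 65.4% over all genes). MET, the receptor of HGF, read 14432, AXL, a receptor for GAS6, 6585, ROR1 1732, ERBB2 1238, IGF1R 1150 and EGFR 961. Of the kinases that angiogenesis inhibitors such as sunitinib are known to bind, PDGFRB read 706 and 121 on its probes and CSF1R 41.9. KDR (4.74), FLT1 (8.30), FLT4 (9.03), KIT (6.70), FLT3 (6.01), PDGFRA (4.11) and RET (25.5) were not detected, and RET was the highest undetected gene on the array.

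NF-κB genes, which the study followed as proteins, were all detected (12 of 12, beside 65.4% over all genes, median signal 801). NFKBIA, the inhibitor that holds NF-κB in the cytoplasm, read 11606, RELB 7678, NFKB1, the p50 precursor, 2691, and RELA, the p65 subunit, 613 and 168 on its probes. NFKB2 (150) and REL (147), the other subunits, were dimmer, and NFKBIB (108) was the dimmest of the group. All 9 genes of the GADD45 and JNK group were detected as well. GADD45A, a stress protein, read 7252, GADD45B, which binds and restrains MKK7, 4061, and MAP2K7, which encodes MKK7, 2536. The kinases themselves were dimmer, with MAPK9 (JNK2) at 117, MAPK8 (JNK1) at 89.8 and MAPK10 (JNK3) at 71.1.

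Receptors and adaptors of the tumor necrosis factor family were detected in 13 of 14 cases (92.9%, beside 65.4% over all genes). TNFRSF12A, the receptor of TWEAK, was brightest at 32061, followed by the death receptor TNFRSF10B (13538) and the adaptors FADD (5907), TRAF2 (5289 and 37.0) and TRADD (5273). TNFRSF1A, the main receptor for TNF, read 1156 and TNFRSF1B, which is mostly found on leukocytes, 12.4. The latter was the undetected member of the group.

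All 34 genes of the apoptosis list were detected, beside 65.4% over all genes. Among genes that promote death, BID read 7978, BBC3 (PUMA) 5253, BAX 4289 and 119 on its probes, PMAIP1 (NOXA) 3148 and BAD 1366. Others of this kind were BOK (916), BIK (727), BAK1 (670), BMF (592 and 25.1), BCL2L11 (BIM, 388) and HRK (24.2). Among those that protect, BCL2A1 read 1273 on its brightest probe, BCL2L2 929, MCL1 419 and BCL2L1 (BCL-XL) 318, while BCL2 was near the edge of detection at 33.2. These are signals of different probes and give no ratio of protective to lethal transcripts. DIABLO, the mitochondrial antagonist of caspase inhibitors, had probes at 36027 and 4480. Among caspases, CASP4 read 8445, CASP9 read 359, CASP8 217 and APAF1, the scaffold that activates CASP9, 64.6. CFLAR, which encodes c-FLIP, had 4 probes at 1182, 562, 319 and 131. PARP1, cut by caspases during apoptosis, read 1840 and 275 on its probes. Of the 28 genes in the study's panel of apoptotic genes, 23 were detected, a share of 82.1%. That panel was picked by the study on these samples, so its share is not independent of them. Of the nitric oxide synthases, NOS3 read 102 on one probe and 4.54 on another, and NOS1 (4.73) and NOS2 (4.51) were not detected.

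**Figure D4:**
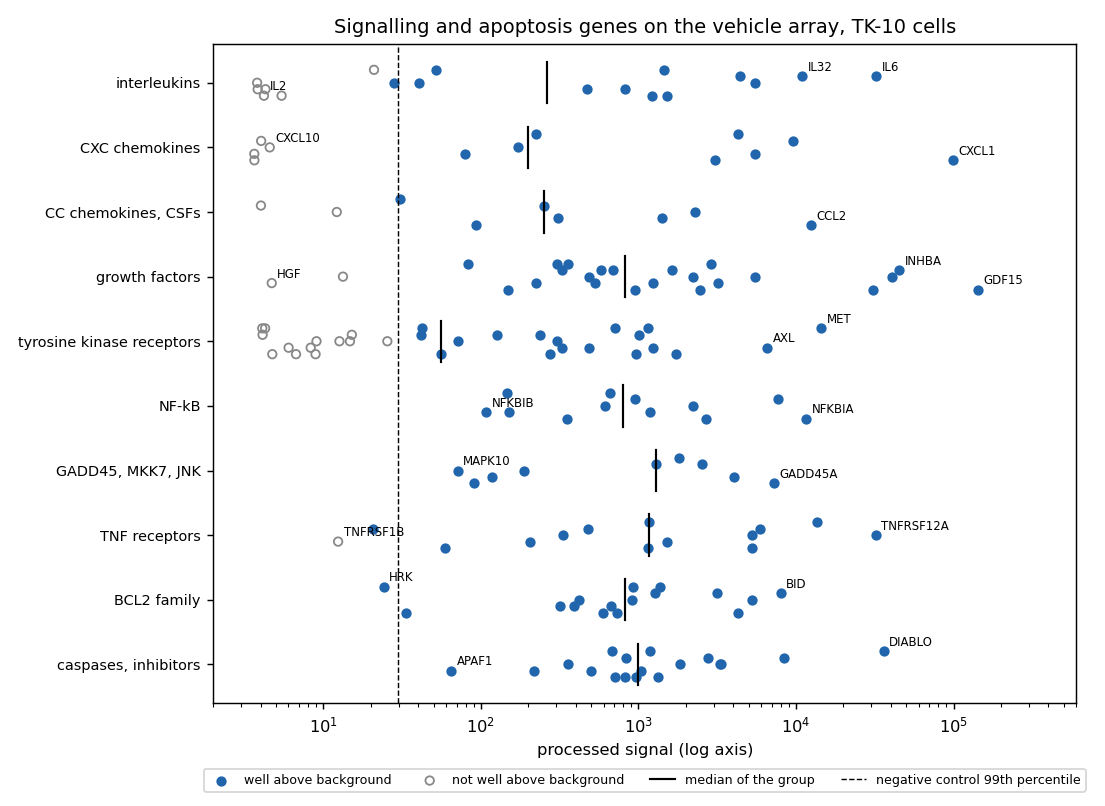
Processed signal (x axis, log scale) of each member of the cytokine, receptor, NF-κB, JNK, tumor necrosis factor receptor and apoptosis groups (rows), filled where well above background, with the group's median as a vertical bar. All NF-κB, JNK, BCL2 family and caspase genes are filled, while 13 receptor tyrosine kinases are open.

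All 23 measured genes of division were detected, as were the 15 inhibitors of division and tumor suppressors on the list, beside 65.4% over all genes. CDK4 (6691) and CDK6 (5743), the kinases of the G1 phase, PCNA (2326), the replication clamp, CCNB1 (1212), CCND1 (664) and the proliferation marker MKI67 (376) were among them, and CDK2, at 65.0, had the lowest signal of the group. CDKN1C, the p57 inhibitor, was the brightest of its group at 20678 on 1 probe. CDKN1A, the p21 inhibitor, read 139. CDKN2A read 626 on the probe for one transcript and 4.40 on the probe for another. Tumor suppressors often altered in renal carcinoma were detected, with PBRM1 at 1491, KDM5C at 783, BAP1 at 168 and SETD2 at 165. The other KDM5C probe read 13.6 and was not detected.

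Stress and protein-folding genes had high signals. All 15 genes of the unfolded protein response and ATF4 group were detected, beside 65.4% over all genes. Their median signal was 3903, beside 106 over all genes. CALR (86342), a chaperone of the endoplasmic reticulum, ATF4 (68548), ASNS (26565), TRIB3 (24430) and NUPR1 (12144) were the brightest with HSP90B1 (46222). Of 21 heat shock and antioxidant genes, 20 were detected, led by the peroxidase GPX1 (102520) and the chaperone HSPB1 (45444). HSPA1A (4.49) was the undetected one, while HSPA1B (547), a near-identical copy, was detected, so the split between them is uncertain.

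Matrix and adhesion genes were detected in 40 of 42 cases (95.2%, beside 65.4% over all genes). Both chains of basement membrane collagen were bright, COL4A2 at 108592 and COL4A1 at 11868, as were the laminin chains LAMB3 (20740) and LAMB1 (17758) and osteopontin, SPP1 (14070). Among the 12 integrins, all detected, ITGAV (10565) led and ITGA2 (22.7) was near the edge of detection. PLAU (34176), the urokinase, and TIMP2 (29675), a protease inhibitor, were the brightest of their group, and TIMP3 (16.5) and MMP3 (3.78) were not detected.

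Genes of antigen presentation were examined by class. All 13 class I genes were detected, with HLA-E at 148665 and 13726, HLA-C at 43453, HLA-B at 25811 and B2M, their shared subunit, at 7215. The class I heavy chains resemble one another, so the split of signal between them, HLA-G (62958) included, is uncertain. Of 10 class II genes 6 were detected (60%, beside 65.4% over all genes and 71.1% over protein-coding genes). HLA-DRB1 read 168, HLA-DPA1 137 and HLA-DPB1 105, and none of the class read over 1000. HLA-DRA (7.09), the alpha chain that pairs with HLA-DRB1, and the master regulator CIITA (8.55) were not detected. Of checkpoint ligands, CD276 had probes at 13420 and 153. CD70 read 5017 and CD274 (PD-L1) 63.0, and CD80 (4.46) was not detected.

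Drug handling and adenosine genes are of interest because the study treated these cells with drugs, among them an adenosine analogue. ABCC3 (6658) was the brightest efflux pump, ABCB1, or P-glycoprotein, read 239, and ABCG2 (18.8) was not detected. NNMT (45936), a methyltransferase for nicotinamide, and GSTP1 (39644), a glutathione transferase, led the enzymes. ADA (4406), adenosine deaminase, SLC29A1 (1637), the equilibrative nucleoside transporter, and ADK (464), adenosine kinase, were detected. Of the adenosine receptors ADORA2B (613) was detected and ADORA1 (19.1), ADORA2A (8.97) and ADORA3 (4.50) were not, nor were the concentrative transporters SLC28A1 (4.31), SLC28A2 (4.48) and SLC28A3 (4.33). This group had 6 of 14 members detected (42.9%, beside 65.4% over all genes).

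Families found by symbol ranged from fully detected to almost absent, beside 65.4% detected over all named genes and 71.1% over protein-coding genes. All 77 mitochondrial ribosomal proteins and all 36 complex I subunits of the respiratory chain were detected, as were 37 of 39 proteasome subunits and 34 of 35 tRNA synthetases. Olfactory receptors were detected in 35 of 374 cases (9.36%), with a highest signal of 1915 (OR2H1), whose other probe read 9.94. Taste receptors were detected in 8 of 28 cases, keratin-associated proteins of hair in 31 of 89, potassium channels in 33 of 94 and cytochromes P450 in 23 of 61. The cancer-testis antigen pattern matched 42 genes, of which 6 were detected, none over 134. HOX genes, which keep the position of a tissue along the body axis, were detected in 29 of 39 cases (74.4%), near the share over all genes. Zinc finger genes were detected in 414 of 492 cases (84.1%), with a median signal of 152, so that most were detected at modest signal. Among long non-coding RNAs, 298 of 1127 genes named LINC (26.4%) and 429 of 1054 antisense genes (40.7%) were detected, but 21 of 22 hosts of small nucleolar RNAs were.

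Position on the array was examined in blocks and in small windows. When columns and rows were each cut into 4 equal blocks, the median log2 signal of a block differed from that of the array by -0.14 to 0.08. In windows of 7 by 7 spots, the median log2 signal ran from -2.28 to 3.97 around that of the array (5th to 95th percentile -1.61 to 1.68), and 16.3% to 79.6% of the spots were detected. Their part in the signals was not tested.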

How the data were processed

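One array of vehicle-treated TK-10 cells was analysed. Its values, as deposited, are Cy3 intensity on a linear scale, from which the scanner software (Feature Extraction, version 11.5.1.1) had subtracted background and removed spatial trends. The header names build hg19. The deposited series table holds the same intensity, since 99.88% of its values equalled the mean processed signal of the probe to within 0.01%. The methods describe another kind of array, and their processing was not used here.

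Control spots and 103 spots with an outlier flag were left out, which removed 7 probes and 3 named genes, and spots of a probe were averaged. Signals were neither scaled nor logged, and no depth applies to an array. A probe was detected when over 50% of its spots were well above background. Probes were named by accession through RefSeq genes of GRCh38.p14, and a gene took its brightest probe. Levels of different probes are not comparable as transcript amounts, and intensity is limited by the number of arrays, 1. The gene lists were hand-written, and the gene set and lists were chosen with earlier results of these data known. Genes named are the 4 markers, the 40 brightest, those of the paper's apoptosis panel and measured proteins, up to 8 of the brightest, 3 of the dimmest detected and 10 undetected members of each group, and 5 of the brightest of each family. Members named beyond this rule were chosen after their values were seen. The steps of naming, averaging and ranking were run on a simulated array whose detection calls were set beforehand. The detection call itself was not tested. Alternatives changed the detection criterion, the use of several probes, outlier spots, the background correction (normexp, offset 50) and the table. Calculations were done in R 4.3.3 with limma 3.58.1 and in Python 3.11.15 with pandas 2.3.3, scipy 1.17.1, matplotlib 3.10.9 and numpy 2.4.6. The remaining 2 arrays, and the protein and animal experiments, were not analysed here, and some genes are not reported here.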

Additional observations from a re-analysis of the deposited data

Results flagged for a closer look

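Probes without a gene name also gave signal, although no gene group uses them. Of 27094 such probes, 7168 (26.5%) were well above background, beside 1.62% of the 308 negative control spots and 62.1% of the 31100 named probes. Their median signal was 5.06, against 68.0 for named probes. Which transcripts they report was not tested.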

How the results depend on the processing

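With 1 array and no replicate, no value here carries a biological error, and a gene not detected may still be transcribed. Signals under about 30 are near or below the 99th percentile of the control spots, the highest of which read 166. No paired analysis was possible because each condition has 1 array and no replicate number pairs them. Across 8 alternative settings, 831 of the recomputed values stayed within their limits and 43 moved. The count of detected genes ran from 12436 (signal over 64) to 17755 (signal positive and significant), with 13035 when every probe of a gene had to be detected. Of the 50 brightest genes, 35 stayed among the 50 brightest by the median probe, where genes with 1 probe could not fall. After normexp correction 46 stayed. Adenosine genes detected rose to 10 of 14 with the looser criterion, nitric oxide synthases fell to 0 when every probe had to be detected, and the median span of undetected genes was then 22.9 kb. The 40 other moves were smaller groups and families, mostly under these criteria, such as olfactory receptors (114 with the looser criterion, 20 with signal over 64), LINC genes (575 and 167), nephron factors (9 with the looser criterion), tubule transporters (17), leukocyte markers (8 and 2) and erythroid markers (0 by every probe). Gene symbols of the scanner file, protein length and promoter composition were planned but not run, since the scanner columns used here hold no symbols, no protein table was at hand and promoters matched too few genes.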

Other observations

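By chromosome, the share of protein-coding genes detected lay between 63.1% (chromosome 11, 766 of 1214 genes) and 80.9% (chromosome 22, 322 of 398 genes) over the autosomes, beside 71.1% over all protein-coding genes.

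Antimicrobial and hair genes gave a few clear signals in families that were mostly undetected. The beta-defensins DEFB1, which kidney tubules are known to secrete, and DEFB4A, an inducible one, read 1566 and 1191, while 26 of 33 family members were not detected. The keratin-associated protein KRTAP1-4 read 6839 on its 1 probe, and KRTAP2-4 read 5192 on one probe and 4.32 on the other. KRT81, a hair keratin, read 9760. Of 65 replication-dependent histone genes, 59 were detected (90.8%, beside 65.4% over all genes), and the highest signal was 116845. Of 17 interferon genes, 3 were detected, none over 223.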
